A study of Drosophila melanogaster with 3 samples.

Results

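The 10 genes followed here set antenna and leg identity in the fruit fly, and were examined in ChIP-seq peak lists of the Hox protein Antp: ss, Dll, dan, danr, salm, dac, ct, Lim1, al and ap. They were chosen by name, 10 of 13968 protein-coding genes, and each list entry was assigned to a gene when its summit (the base of highest signal) lay in the gene's span or within 1 kb of it, or, as a second class, over 1 kb and up to 20 kb away. The samples were whole Drosophila melanogaster embryos of strain AntP-MiMIC-GFP, aged 0 to 24 h and of mixed sex, in which an eGFP exon placed in an intron of Antp makes an Antp-eGFP fusion; the fusion was pulled down with an anti-GFP antibody from chromatin sonicated to 200 to 800 bp. There is 1 group of 3 biological replicates, all of this strain, so no conditions were compared and no test was made. A second label names Antp as the antibody target. Every tissue of the embryo is mixed in each sample, and cells of the future antennae and legs were not separated, so a site bound in fewer cells and one bound more weakly per cell cannot be told apart. Each of the 3 replicate lists and the list from pooled alignments holds 30000 entries, ranked by signal and reaching down to very weak ones, and the IDR list (irreproducible discovery rate, a measure of how well ranks recur between replicates) holds 4351 entries. These were exactly the 4351 strongest entries of the pooled list, so an IDR summit here is one above a limit on pooled signal, and 4005 of them had a summit within 100 bp in all 3 replicate lists. The signal of an entry is the authors' value from the peak caller, comparable within 1 list only; it ran from 32.0 to 4656 in the pooled list and from 103 to 4656 in the IDR list. Read totals are not part of the lists, so the depth behind each value is unknown.

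Antp gives thoracic segments their identity, and when it is made in the antennal primordium the antenna grows as a leg. Antenna and leg are built on one ground plan: Dll and dac divide the limb along its axis, and genes such as ss, dan, danr and salm make the distal parts antennal. These genes are best known for their roles in imaginal discs, the larval sacs from which adult limbs grow, whereas the embryo holds only their primordia.

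Of the 10 genes, 3 held an IDR summit: ct with 2, Lim1 with 1 and dac with 1. The other 7, ss, Dll, dan, danr, salm, al and ap, held 0. Among all protein-coding genes 30.0% held at least 1 IDR summit, so 3 of 10 was near the background. The members are long, with a median span of 20167 bp against 2165 bp for all protein-coding genes, and long spans catch more summits. By span, IDR summits occurred in 23.9% of genes under 5 kb, where danr was the only member and held none, and in 44.8% of genes of 5 to 20 kb, where 1 of 4 members did (dac, but not dan, salm or al). They occurred in 55.3% of genes of 20 to 50 kb, where 1 of 4 members did (Lim1, but not ss, Dll or ap), and in 58.5% of genes of 50 kb or more, where ct was the only member and held 2. Per 10 kb of span plus flanks, the members held 0.153 IDR summits and the protein-coding genes as a whole 0.390. Those 2 densities are descriptions of 1 set of lists and were not tested. They are also not matched for span. Mean IDR summits per gene rose from 0.279 under 5 kb to 1.81 at 50 kb or more, less steeply than the spans themselves.

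**Figure D1:**
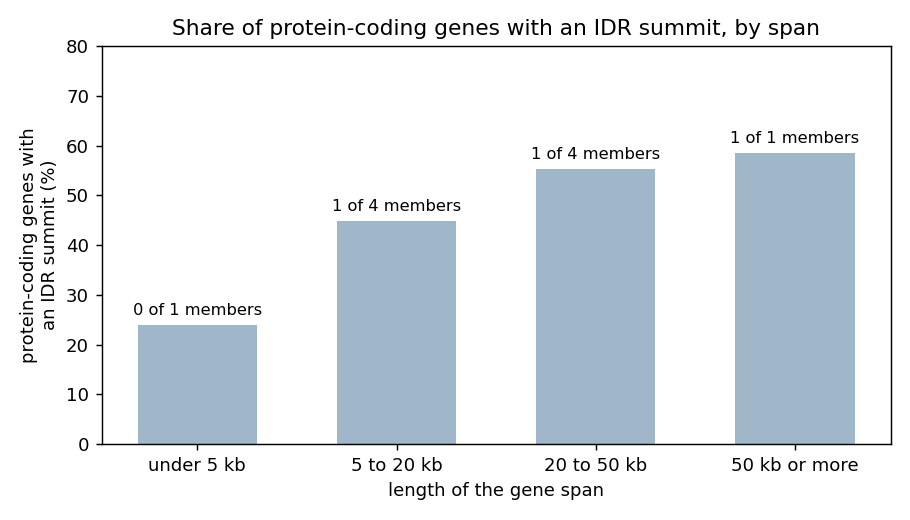
Percent of protein-coding genes with an IDR summit in the span or within 1 kb (bars, y axis) in 4 classes of span length (x axis), with the number of the 10 members that held one written above each bar. The bars rise from 23.9% under 5 kb to 58.5% at 50 kb or more, and 3 of the 10 members held a summit.

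The sequences under the 3 ct and Lim1 summits, and the strongest entry just upstream of salm, are given here because they are the sites the results turn on and, for salm, a site that stayed below the IDR list. All reach 100 bp to either side of the summit, on the plus strand of dm6, and capitals mark TAAT on either strand (TAAT or ATTA), the core of sites that homeodomain proteins bind.
ct first summit, chrX:7618283-7618483: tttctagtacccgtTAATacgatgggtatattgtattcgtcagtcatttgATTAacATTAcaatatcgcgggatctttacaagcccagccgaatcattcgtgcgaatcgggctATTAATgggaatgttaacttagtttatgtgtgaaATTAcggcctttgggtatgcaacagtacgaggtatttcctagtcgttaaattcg
ct second summit, chrX:7651675-7651875: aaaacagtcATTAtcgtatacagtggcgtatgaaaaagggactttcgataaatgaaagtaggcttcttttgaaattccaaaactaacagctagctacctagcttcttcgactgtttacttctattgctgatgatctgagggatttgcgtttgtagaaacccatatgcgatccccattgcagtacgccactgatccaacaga
Lim1 summit, chrX:8774144-8774344: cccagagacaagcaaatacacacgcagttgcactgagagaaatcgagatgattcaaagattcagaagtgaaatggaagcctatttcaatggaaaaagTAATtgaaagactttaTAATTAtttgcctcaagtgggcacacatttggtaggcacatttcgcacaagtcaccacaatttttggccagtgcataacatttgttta
salm upstream entry, chr2L:11446035-11446235: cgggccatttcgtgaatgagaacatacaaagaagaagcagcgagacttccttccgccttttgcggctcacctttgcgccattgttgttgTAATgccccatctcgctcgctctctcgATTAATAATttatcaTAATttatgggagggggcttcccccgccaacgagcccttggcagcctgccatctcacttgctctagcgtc

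The IDR summit upstream of dac has no TAAT in its window. In its sequence, again 100 bp to either side of the summit on the plus strand of dm6, capitals mark GAGAG on either strand (GAGAG or CTCTC), the repeat bound by the GAGA factor Trl.
dac summit, chr2L:16486401-16486601: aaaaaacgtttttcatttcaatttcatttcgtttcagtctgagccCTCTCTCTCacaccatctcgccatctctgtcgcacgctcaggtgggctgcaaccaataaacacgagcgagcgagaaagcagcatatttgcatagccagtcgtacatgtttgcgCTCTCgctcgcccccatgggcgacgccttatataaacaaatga

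Among genes of antennal identity, ct was the only one of ss, dan, danr, salm and ct with an IDR summit. It encodes a homeodomain protein of the antenna, external sense organs and wing margin (FBgn0004198, X:7608428 to 7678859, plus strand). Its strongest summit lay in an intron at 7618383, 9235 bp from the nearest ct transcription start site (TSS), in an entry from 7618273 to 7618493. The pooled signal there was 425, rank 475 of 4351. In replicates 1, 2 and 3 the signals were 135, 134 and 154, with ranks of 453, 568 and 462 (mean 494 ± 64.0, SD, n = 3), so all 3 lists placed this site high and close together. The replicate summits lay 8, 13 and 8 bp from the pooled one. The second ct summit, at 7651775, was also intronic, 19553 bp from a ct TSS, with a pooled signal of 216. Its replicate signals were 66.0, 83.2 and 68.2 and its ranks 1620, 1327 and 1948 (mean 1632 ± 311, SD, n = 3). The first site outranked the second in each replicate.

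The gene ss encodes a bHLH-PAS transcription factor without which the distal antenna takes on leg character (FBgn0003513, 3R:16374434 to 16403690, minus strand). No IDR summit lay in it, and its 3 pooled entries had signals of 37.3, 39.7 and 44.4, all below the median of the pooled list (47.2). The strongest ss entry ranked 15839 in replicate 1, 7853 in replicate 2 and 20934 in replicate 3 (mean 14875 ± 6594, SD, n = 3), and these were 3 different places spread over 21108 bp. Each of the 3 pooled entries was found in 1 replicate only. The nearest IDR summit, 18845 bp beyond the 3' end, lay in an intron of CG10311 with a signal of 215, and the TSS of that gene was 1426 bp away. Replicate ranks of that summit were 2411, 1555 and 1565 (mean 1844 ± 491, SD, n = 3).

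The neighbours dan (FBgn0039286, 3R:25184383 to 25192806) and danr (FBgn0039283, 3R:25138072 to 25139903), both on the plus strand, encode related nuclear proteins that promote antennal fate. Their strongest pooled entries lay near their own TSSs. That of dan was 36 bp from it with a signal of 49.9, and that of danr 341 bp from it with a signal of 55.9; both were found in 2 of 3 replicates. The strongest dan entry of each replicate list ranked 17780, 14307 and 16735 in replicates 1, 2 and 3 (mean 16274 ± 1782, SD, n = 3), the weakest mean of the 10 genes. These were different places, up to 6788 bp apart. The entry 36 bp from the TSS ranked 20409 in replicate 1 and 14307 in replicate 2, with no entry within 100 bp in replicate 3. For danr the best ranks were 12811, 19200 and 14443 (mean 15485 ± 3319, SD, n = 3), at places up to 829 bp apart. The span of dan overlaps that of lobo, and an IDR summit with a signal of 112 lay 1173 bp beyond the 3' end of dan, 203 bp from the TSS of lobo. It is the nearest IDR summit to dan and just outside the 1 kb limit. Another, with a signal of 127, lay 14749 bp away, 728 bp from the TSS of Cad96Ca, a receptor tyrosine kinase gene. Around danr 0 IDR summits lay within 20 kb.

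The zinc finger gene salm, which is needed for the hearing organ of the antenna (FBgn0261648, 2L:11434311 to 11445614, minus strand), held 5 pooled entries with signals of 33.6 to 54.2. The strongest was 521 bp upstream of the TSS and had an entry in replicate 3 only, while an entry 64 bp from the TSS, with a pooled signal of 49.4, had one in replicate 1 only. The strongest salm entry ranked 4343 in replicate 1, just among the 4351 strongest of that list, but 16250 in replicate 2 and 6163 in replicate 3 (mean 8919 ± 6414, SD, n = 3; 5253 without replicate 2). These were different places, up to 2432 bp apart. No IDR summit lay within 20 kb of salm, and the nearest was 53389 bp away, 55 bp from the TSS of Cog8. Farther upstream, 7553 bp from salm in an intron of lncRNA:CR46454, an entry had a pooled signal of 84.4 and ranks of 3711 and 6356 in replicates 2 and 3, with no entry within 100 bp in replicate 1. The paralogue salr held 4 pooled entries and 0 IDR summits.

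**Figure D2:**
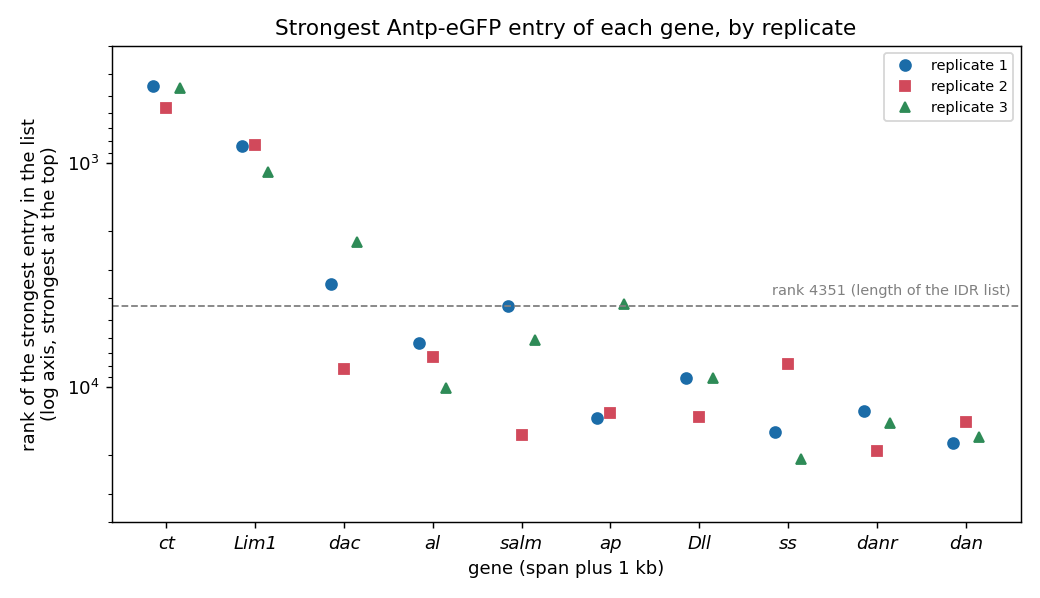
Rank of the strongest entry in the span or within 1 kb of each gene (y axis, log scale, strongest at the top) in replicates 1, 2 and 3 (symbols), with genes ordered by mean rank (x axis); the dashed line marks rank 4351. For ct and Lim1 all 3 replicates lie far above the line, for dac replicates 1 and 3 lie above it and replicate 2 below, and of the other 7 genes only salm and ap reach the line, each in 1 replicate.

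Of the 2 genes that divide the limb along its axis, dac had an IDR summit and Dll did not. The gene dac encodes a nuclear protein required for the intermediate segments of the leg (FBgn0005677, 2L:16466512 to 16485998, minus strand). Its summit at 16486501 lay 503 bp upstream of its TSS, in intergenic sequence, with a pooled signal of 122 and rank 3522. Replicate signals were 39.7, 17.7 and 61.8 and ranks 3467, 14323 and 2254 (mean 6681 ± 6646, SD, n = 3; 2860.5 without replicate 2). Replicates 1 and 3 thus placed it among their 4351 strongest entries, while in replicate 2 its signal was close to the median of that list (17.3). Upstream of dac lay 3 more IDR summits, at 1756, 6728 and 14680 bp from its 5' end, with signals of 165, 190 and 537. The first is 394 bp from the TSS of Nepl8, which encodes a neprilysin-like peptidase, and the others are in Tpr2, a chaperone gene. The strongest of them ranked 375, 272 and 282 in the 3 replicates (mean 310 ± 56.8, SD, n = 3), above every other IDR summit within 20 kb of a member. Inside dac, a coding entry at 16472422 was found in all 3 replicates, with a pooled signal of 61.6 and ranks of 5750, 23635 and 8516.

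Dll encodes the homeodomain protein that starts and maintains distal limb growth (FBgn0000157, 2R:24814822 to 24835667, plus strand). It held 8 pooled entries with signals of 32.5 to 57.9, but no IDR summit within 20 kb; the nearest, with a signal of 850, was 21166 bp away and 151 bp from the TSS of asRNA:CR43257. Its strongest entry in the replicate lists ranked 9083, 13577 and 9102 (mean 10587 ± 2589, SD, n = 3), at places up to 20105 bp apart. An entry 67 bp from the Dll TSS had a pooled signal of 51.1 and was found in replicates 1 and 3, at ranks 20193 and 10751. The only Dll entry found in all 3 replicates lay in the 3' UTR, with a pooled signal of 57.9 and ranks of 22009, 29655 and 9102.

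Among the 3 homeobox genes of the limb tip, Lim1 had an IDR summit and al and ap did not. Lim1 encodes a LIM-homeodomain protein of the distal leg and antenna (FBgn0026411, X:8756539 to 8805804, minus strand). Its summit at 8774244, in an intron and 11109 bp from a Lim1 TSS, had a pooled signal of 311 and rank 889. The replicate signals were 98.0, 109 and 100.2 and the ranks 840, 831 and 1098 (mean 923 ± 152, SD, n = 3), a spread that did not reach the ranks of either ct site. A second IDR summit at 8755508, with a signal of 106 near the bottom of the list, lay 1031 bp beyond the 3' end, just outside the 1 kb limit. Its ranks were 3429, 8479 and 3657 in replicates 1, 2 and 3 (mean 5188 ± 2852, SD, n = 3). Lim1 also held 3 intronic entries below the IDR list that were found in all 3 replicates, more than any other member. Their pooled signals were 83.9, 81.9 and 62.6.

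The homeobox gene al, which patterns the tip of the leg and the arista of the antenna (FBgn0000061, 2L:378112 to 387439, plus strand), held 3 pooled entries. The strongest, at 387084 in coding sequence, had a signal of 71.0 and ranks of 6348, 28975 and 10071 in replicates 1, 2 and 3. The best al rank of each replicate was 6348, 7358 and 10071 (mean 7926 ± 1925, SD, n = 3). The LIM-homeobox gene ap, which acts in the dorsal wing and in the tarsus (FBgn0267978, 2R:5706202 to 5727525, minus strand), held a single pooled entry, with a signal of 47.6. In its span class of 20 to 50 kb, 93.1% of genes held more pooled entries than ap, and the median was 8. Replicate 3 alone had an ap entry among its 4351 strongest, at rank 4257, at 5727019 and 187 bp from a TSS. The best ap entry of replicate 2 lay beside it at 5727026, with rank 13007. That of replicate 1 was elsewhere, at 5715552, with rank 13666 (mean over the 3 replicates 10310 ± 5252, SD, n = 3). The single pooled entry, at 5710110, was at neither place. Neither gene had an IDR summit within 20 kb. The nearest to al was 27481 bp away at the promoter of AP-2alpha, with a signal of 630, and the nearest to ap 30339 bp away at the promoter of CG34200, with a signal of 116.

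**Figure D3:**
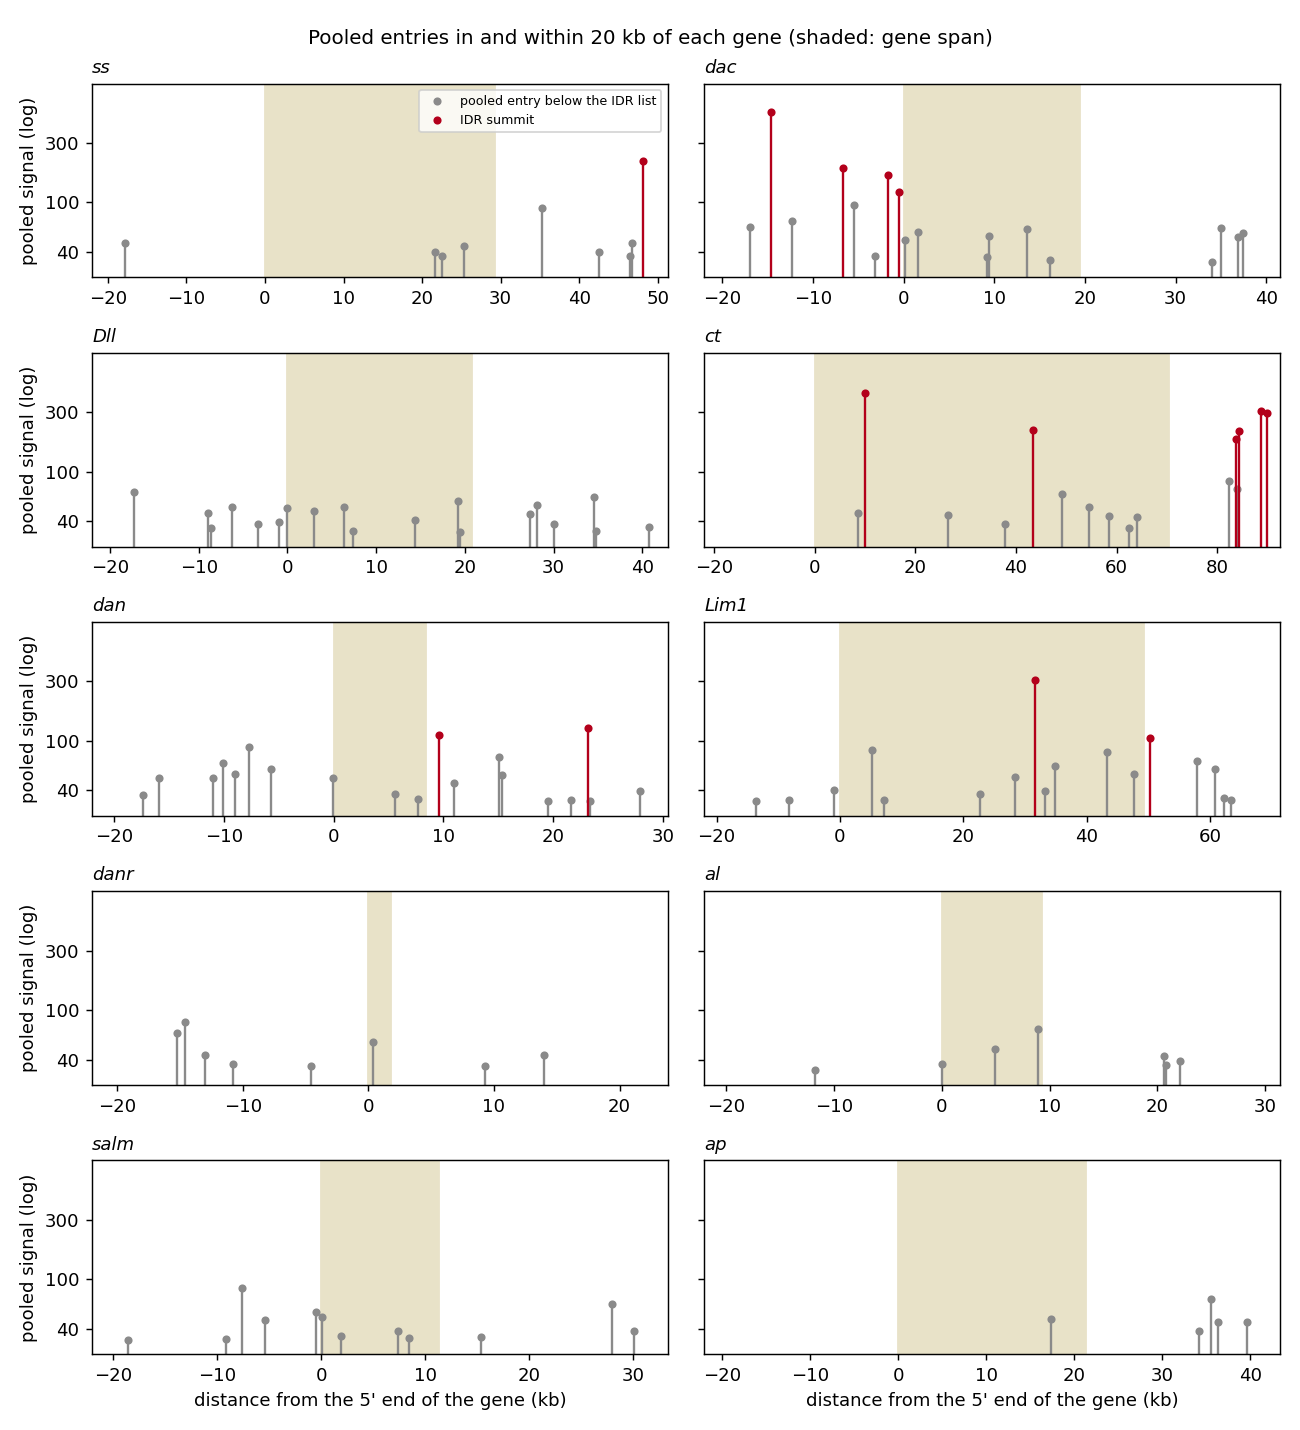
Pooled signal (y axis, log scale) of every pooled entry in and within 20 kb of each of the 10 genes, against distance from the 5' end of the gene in its direction of transcription (x axis, kb), with the gene span shaded. IDR summits (red) lie inside the spans of ct and Lim1, within 1 kb upstream of dac, and farther out at ss, dan, dac, ct and Lim1; the grey entries below the IDR list have signals under 103.

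Both members on the X chromosome held an IDR summit, against 1 of the 8 on autosomes. Of all protein-coding genes on X, 32.4% held one, and of those elsewhere 29.5%. The X members are also the longest of the 10, so arm and span length cannot be told apart here.

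With the window widened to 20 kb on either side, 5 of the 10 genes had an IDR summit, against 77.6% of protein-coding genes. Over 1 kb and up to 20 kb away lay 11 summits: 4 beyond the 3' end of ct, 3 upstream of dac, 2 beyond the 3' end of dan, and 1 each beyond the 3' ends of ss and Lim1. For 10 of these 11 the nearest TSS belonged to another gene. The 4 summits beyond ct were all in or at CHES-1-like, which encodes a forkhead transcription factor, at 410 to 2817 bp from its TSS. They had signals of 182, 212, 305 and 294. The strongest of the 4 ranked 1074, 737 and 1190 in the replicates (mean 1000.3 ± 235, SD, n = 3).

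In the whole pooled list, IDR summits included, all 10 members had at least 1 entry, as did 75.0% of protein-coding genes. The number of such entries was 51 in all, 47 of them below the IDR list: 10 each at ct and Lim1, 8 at Dll, 7 at dac, 5 at salm, 3 each at ss, dan and al, and 1 each at danr and ap. That is 1.95 entries per 10 kb, against 2.56 over all protein-coding spans. Set beside the median gene of the same span class, the members went both ways. More entries lay at dac (7 against 3), salm (5 against 3) and Lim1 (10 against 8). Counts equalled the median at Dll, dan, danr and al, and were lower at ss (3 against 8), ct (10 against 13) and ap (1 against 8). In replicates 1, 2 and 3 the same spans held 54, 60 and 54 entries, or 2.07, 2.29 and 2.07 per 10 kb against 2.55, 2.54 and 2.54 over all protein-coding spans, so members lay below the whole in each list. Of the 51 entries, 10 had a summit within 100 bp in every replicate list, 20 in 2 lists, 19 in 1 and 2 in none. These 10 are 19.6% of the entries, against 25.6% of the whole pooled list. Of the 47 below the IDR list, 6, or 12.8%, recurred in every replicate, against 14.3% of all such entries, and they lay in Lim1, Dll, dac and al. At least 1 recurring entry was found for 5 of 10 members, against 42.4% of protein-coding genes. Most of those genes are shorter than the members, and that share was not worked out by span class. Pooled entries were made from the reads of the same replicates, so recurrence is no independent support.

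**Figure D4:**
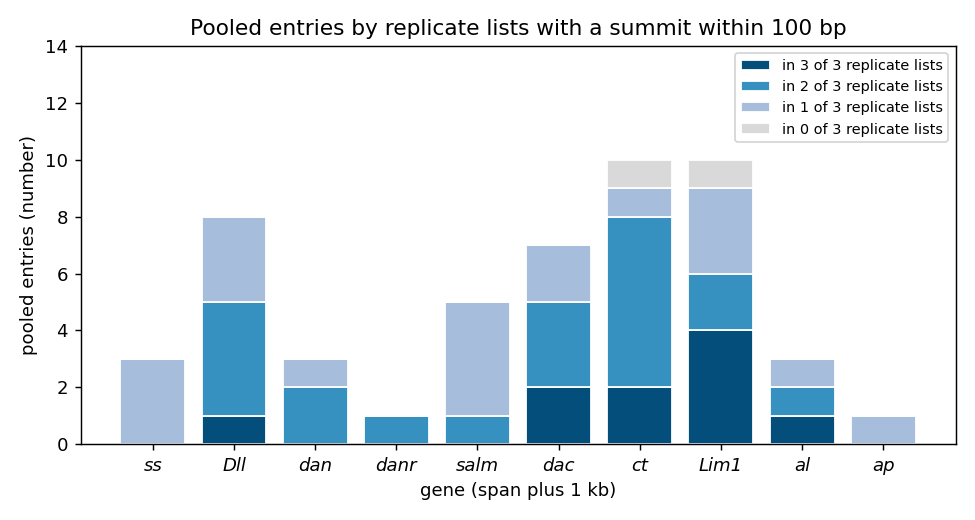
Number of pooled entries in the span or within 1 kb of each gene (y axis), stacked by how many of the 3 replicate lists had a summit within 100 bp (shades). Of 51 entries 10 were found in every replicate list, in ct, Lim1, dac, Dll and al, and none of the entries of ss, dan, danr, salm or ap were.

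Counting only the 4351 strongest entries of each replicate, 2 of the 10 members, ct and Lim1, had one in all 3 replicates, against 23.4% of protein-coding genes. This share, too, was not worked out by span class. The members had 5, 4 and 5 such entries in replicates 1, 2 and 3. Over the 10 genes the median of the mean best rank was 9614. No like median over all protein-coding genes was worked out to set beside it.

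Of the 4 IDR summits of the members, 0 lay within 500 bp of a TSS (exact Clopper-Pearson 95% interval 0 to 60.2%, counting error only), against 54.9% of all IDR summits. That interval holds the share of the whole list, but the 4 summits, 2 of them in ct, cannot be taken as independent draws. It is given as a description, no difference can be read from 4 summits, and none was tested. The dac summit at 503 bp was just outside the limit. Of the 4, 3 lay in introns and 1 in intergenic sequence. Of the 47 entries below the IDR list, 12 had the summit in coding sequence over 500 bp from a TSS (25.5%), against 27.5% of all such pooled entries. The GC content of their windows, 100 bp to either side of the summit, was 55.2 to 69.7% with a median of 61.9%, where the 23 intronic entries had 27.9 to 57.7% with a median of 43.8%. The median over all 7053 pooled entries below the IDR list with a summit in coding sequence was 58.2%, and the windows of the 4 IDR summits had 38.3 to 48.3% against a median of 38.3% over the IDR list. Whether base composition plays a part in these weak entries was not tested. In replicates 1, 2 and 3, respectively, 18 of 54, 16 of 60 and 11 of 54 member entries lay in coding sequence. The share over each whole replicate list was not worked out, so whether these counts are usual is unknown.

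The printed windows show how the 4 IDR sites differ in sequence. TAAT occurred in 3 of 4, against 87.4% of all IDR windows, so its presence sets none of them apart. The first ct window holds 6 copies, at 86, 50 and 44 bp before and 13, 15 and 47 bp after the summit, counted to the first base of each copy. Among them is TAATGG, a form found in 8.23% of IDR windows. The second ct window holds 1 copy, read as TAATGA on the minus strand, which 11.5% of IDR windows contain. In Lim1 the first of 3 copies covers the summit itself and reads TAATTG (17.3% of IDR windows), and the overlapping pair 13 and 15 bp after it forms TAATTA (12.0%). GAGAG was in 2 of 4 windows (dac with 4 copies, 3 of them overlapping, and Lim1 with 1), against 25.1% of IDR windows. TGATNNAT, a spacing of sites for the cofactor Exd beside a Hox protein, was found in 0 of 4 windows and in 12.2% of all IDR windows. The salm window, which was not in the IDR list, holds 1 copy that overlaps its TAAT cluster. The salm window was not alone below the IDR list. The Dll 3' UTR entry found in all 3 replicates holds 2 copies. An intronic al entry holds 1, as do the salm entries at 11437194 and 11443717, the ct entry at 7666821 and the Lim1 entry at 8772621. The share over all entries below the IDR list was not worked out. The TAAT cluster of the salm window is not typical either. The strongest pooled entries of ss, Dll, danr and al hold no TAAT, that of ap 2 copies and that of dan 4. GCGTG, the core of sites for bHLH-PAS proteins such as Ss, was in 2 of 4 (Lim1 and dac) against 21.1%. The DRE (TATCGATA) and Ohler1 (GGTCACAC), motifs of housekeeping promoters found in 4.80% and 2.80% of IDR windows, and the E-box CACGTG (2.78%) were in 0 of 4. All motifs were read on both strands and matches are descriptions of letters, not of binding.

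Of 55 other genes that pattern the limb and its sense organs, 15 (27.3%) held an IDR summit, against 30.0% of all protein-coding genes. Split at a span of 20 kb, the list was lower in both parts. Of its genes of 20 kb or more, 8 of 21 (38.1%) held a summit, against 56.3%. Of its shorter genes 7 of 34 (20.6%) did, against 27.9%. These differences were not tested. The shorter part is not matched for span: of its 12948 protein-coding genes 10476 are under 5 kb, whereas most of the shorter listed genes are 5 to 20 kb. A summit was held by 23.9% of all genes under 5 kb and by 44.8% of those of 5 to 20 kb. The strongest signals were 639 at sr, whose product directs tendon cells, 420 at dpp, which encodes a BMP-type growth factor, 322 at bowl, a zinc finger gene of leg joints, and 319 at Antp itself. The summits of sr, dpp and Antp were intronic and that of bowl was 195 bp from its TSS. Among the genes without an IDR summit the longest were bab1 (64721 bp), a BTB-domain gene of the tarsus, and dve (42507 bp), a homeobox gene of leg joints. The homeobox gene C15, which acts with al and Lim1 at the leg tip, held 1 summit with a signal of 206, 271 bp from a C15 TSS. The partner genes of member proteins, Chi for the LIM-homeodomain proteins and tgo for Ss, held 0 each. Both are short (2406 and 3250 bp), and of all protein-coding genes under 5 kb only 23.9% held a summit.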

How the data were processed

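The deposited files are narrowPeak lists. Per the labels, peaks were called for every replicate against a control and for the replicates pooled, and the IDR list was made from these; which aligner, which peak caller and which IDR threshold were used is not given in the sources. The signal deposited by the authors (column 7) is the caller's strength value; the −log10 q-value deposited by the authors (column 9) served only as an alternative ranking. The dm3 lists were not used here. Replicate lists shared at most 1 interval with identical borders and no signal value.

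Summits were placed on dm6 with the Ensembl release 115 gene models, 1-based, and sequence came from RefSeq's copy of that assembly. Python 3.11.15 with pandas 2.3.3, scipy 1.17.1 and pyfaidx 0.9.0.4 was used, and the counting was tested on simulated positions. Entries of 2 lists matched when their summits lay within 100 bp. Ranks are by signal. A promoter summit is within 500 bp of any TSS; other summits took the first class that applied, 5' UTR before CDS, then 3' UTR and any further exon, then intron or intergenic.

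Named are all members, salr, the gene of the TSS nearest each IDR summit in or near a member, and from the list of 55 limb genes the 4 with the highest signal and the 2 longest without a summit; C15, Chi and tgo, and other neighbours that place an entry, were added after their values were seen. In that list Dl and dys were read as Delta and dysf. Members, lists and comparisons were chosen with earlier results of these data known. Alternatives were other gene windows, midpoints, the gene of the nearest TSS, the 2175 strongest IDR entries, each replicate left out, other matching rules, TSS distances and motif windows, and ranking by q-value.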

Additional observations from a re-analysis of the deposited data

How the results depend on the processing

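The count of 3 members with an IDR summit became 2 with spans alone, with the 2175 strongest IDR entries and with the strongest entries of all 3 replicates, 3 with midpoints or the nearest TSS, 4 with 5 kb and 5 with 20 kb; in the strongest entries of 2 replicates, leaving out each in turn, it was 2 to 3. dac was the gene lost without its flank, in the 2175 strongest and whenever replicate 2 was counted. The 4 summits became 7 with 5 kb. The 11 summits farther away became 4 within 10 kb and 43 within 50 kb. The 51 pooled entries became 45 with spans alone and 59 with 5 kb. The 10 recurring entries became 5 at 50 bp, 12 at 250 bp, 10 at a reciprocal overlap of 50%, 14 at an overlap of 1 bp and 17, 18 and 15 when replicate 1, 2 or 3 was left out and only the other two had to match. The share at promoters was 25% at 1000 bp and 0 in the other settings, and the share with TAAT was 50% within 50 bp of the summit and 100% within 250 bp. The median best rank of 9614 was 9609 by q-value and 8586 to 10813 without 1 replicate. Ranking by q-value moved ct and Lim1 to a mean rank of 1430 each, since the highest q-values are tied. Without replicate 2 the mean best rank moved from 8919 to 5253 for salm and from 4666 to 2860.5 for dac, each by over 1.5 times; no other single gene moved that far when 1 replicate was left out. Depth is unknown, so a member without an IDR summit is absent from these lists at an unknown depth. No paired analysis was possible because there is 1 group.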
